A study of Homo sapiens with 6 samples.

Results

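Immediate early genes are those whose transcription a cell starts within minutes of a stimulus without needing new protein. The 10 described here lie outside the AP-1 (FOS and JUN) family: the serum response factor gene SRF, the zinc-finger factor genes EGR1, EGR3, KLF6 and KLF10, the immediate early response genes IER2, IER3 and IER5, and the MAP kinase phosphatase genes DUSP1 and DUSP6. They were chosen by symbol, and all 10 have a row among the 19892 genes of the deposited table. Of these, 9 were above 0 in both groups and 8 had an FPKM of at least 1 in at least 1 group. Only those 8 are counted below, among 13219 compared genes that met the same minimum and were above 0 in both groups. FPKM, fragments per kilobase of transcript scaled to the mapped fragments, corrects for transcript length, so that levels of different genes can be set side by side.

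The samples were 3 libraries of HEK293 cells, a human embryonic kidney line, with CRISPR-Cas9-mediated CNBP knockout and 3 of wild-type HEK293 cells. CNBP binds nucleic acids through its zinc knuckles, and the series title puts its sites in G-rich stretches of mRNA coding sequence. All cells were grown in DMEM with 10% FCS, and no stimulation is labelled, so the values are those of growing cells. Neither the number of knockout clones nor the source culture of each library is labelled. The authors' table holds 1 value per gene and group. No spread between libraries is therefore known, the depth is unknown, and no difference below carries a test or an error.

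In this pathway a growth factor binds a receptor kinase, and the signal passes through RAS to the kinases MEK and ERK. ERK phosphorylates cofactors of SRF, which sits on CArG boxes in promoters and starts transcription of genes such as EGR1. The products include transcription factors that act on later genes and phosphatases that switch the kinases off again, and many of the mRNAs are short-lived.

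None of the 8 compared genes differed by 1.5-fold between knockout and wild type. The highest ratio was that of IER2, at 1.32-fold, and the next that of SRF, at 1.18-fold. The only values below 1 were those of DUSP6, which was 1.12-fold lower in knockout, and of IER5, which was 0.654% lower. Across all compared genes, 1.48% were higher and 2.78% lower by 1.5-fold or more, so that a count of 0 among 8 is near the background. At 1.2-fold the count was 1 higher, IER2, and 0 lower, while 8.62% of all compared genes were higher and 13.2% lower by that much. Log2 ratios of knockout over wild type ran from -0.16 to 0.40, with a median of 0.12, and 6 of 8 were above 0. Across all compared genes the median log2 ratio was -0.01, and 48.7% were above 0.

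**Figure D1:**
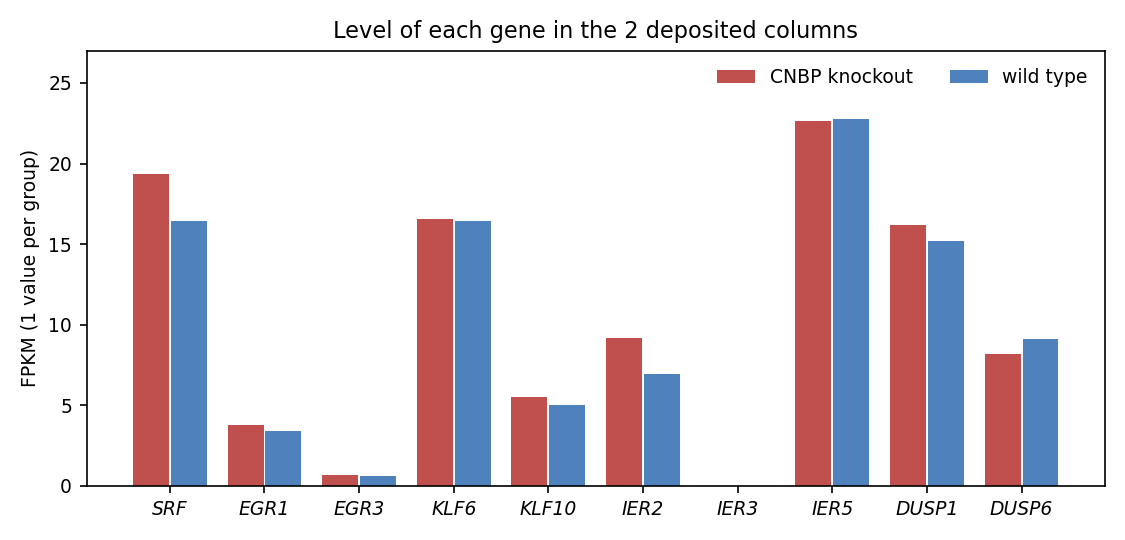
FPKM of the 10 genes, as bars from 0, with CNBP knockout to the left of wild type for each gene (1 deposited value per group, no error). The paired bars differ most in height at SRF (19.3 and 16.4 FPKM) and IER2 (9.17 and 6.95 FPKM), and IER3 is listed at 0.

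SRF (ENSG00000112658) encodes the MADS-box factor that binds CArG boxes, and its own gene is among its known targets. Its level was 19.3 FPKM in knockout and 16.4 FPKM in wild type, a log2 ratio of 0.24. EGR1 (ENSG00000120738), a zinc-finger factor that binds GC-rich sites and a textbook SRF target, had 3.76 FPKM in knockout and 3.40 FPKM in wild type. Its log2 ratio was 0.15, a difference of 0.362 FPKM. EGR3 (ENSG00000179388), a close relative, had 0.693 FPKM in knockout and 0.588 FPKM in wild type. At that level its log2 ratio of 0.24 rests on a difference of 0.105 FPKM, and the gene was not counted. With a pseudocount of 1 added to both values the log2 ratio of EGR3 was 0.09. The 2 other family members, EGR2 (0.284 FPKM in knockout, 0.142 in wild type) and EGR4 (0.0656 and 0.00726 FPKM), were lower still. The corepressors that bind EGR proteins lay on both sides of 0, with a log2 ratio of 0.27 for NAB2 (5.22 FPKM in knockout, 4.32 in wild type) and -0.26 for NAB1 (18.4 and 22.1 FPKM).

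The promoter windows of EGR1 and SRF are printed because their CArG boxes, in capitals, are the sites through which the pathway is known to reach these genes. Each window runs from 250 bases before to 50 bases after a RefSeq start, on the gene's strand, in build GRCh38.p14. EGR1 lies at chr5:138465229-138465528 on the + strand and SRF at chr6:43171019-43171318 on the + strand. In EGR1 the TGACG core of the cAMP response element is also in capitals.
EGR1: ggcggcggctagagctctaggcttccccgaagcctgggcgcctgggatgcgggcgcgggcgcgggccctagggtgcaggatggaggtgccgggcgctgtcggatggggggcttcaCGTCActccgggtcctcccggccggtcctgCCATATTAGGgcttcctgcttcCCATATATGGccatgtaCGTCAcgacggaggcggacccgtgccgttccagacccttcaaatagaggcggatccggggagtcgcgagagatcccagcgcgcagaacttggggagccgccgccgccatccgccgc
SRF: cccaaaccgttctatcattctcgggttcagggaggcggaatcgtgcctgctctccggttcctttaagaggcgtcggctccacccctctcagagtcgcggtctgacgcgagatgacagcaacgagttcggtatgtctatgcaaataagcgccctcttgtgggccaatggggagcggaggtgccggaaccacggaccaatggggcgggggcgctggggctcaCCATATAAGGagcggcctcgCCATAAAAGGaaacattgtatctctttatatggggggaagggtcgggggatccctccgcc
EGR1 and SRF each had 2 CArG boxes, those of EGR1 beginning 105 and 83 bases before the start and those of SRF 30 and 10 bases before it. Of 35116 promoter windows, 1.29% held at least 1 CArG box on either strand and 11 windows held 2 or more. The other 5 windows searched, those of KLF6, IER2, IER5, DUSP1 and DUSP6, held none, which says only that the letters are not in these windows. The 2 genes with CArG boxes had log2 ratios of 0.24 (SRF) and 0.15 (EGR1), inside the range of the genes without them. The table of windows has 7 of the 10 genes, and for SRF the more upstream of 2 windows was used.

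KLF6 (ENSG00000067082) and KLF10 (ENSG00000155090) encode Krüppel-like zinc-finger factors that bind GC-rich promoters, KLF10 being known as an early target of TGF-beta signalling. KLF6 had 16.6 FPKM in knockout and 16.5 FPKM in wild type, a log2 ratio of 0.01. KLF10 had 5.51 FPKM in knockout and 4.99 FPKM in wild type, a log2 ratio of 0.14. The columns were thus within 1.1-fold of each other for KLF6 and just past it for KLF10. Of the 17 family members, 12 were compared, 9 of them above 0 and none past 1.5-fold either way, and the most abundant besides KLF6 were KLF3 (17.7 FPKM in knockout, 15.3 in wild type) and KLF16 (13.8 and 12.1 FPKM).

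IER2 (ENSG00000160888) and IER5 (ENSG00000162783) encode related nuclear proteins, IER5 being known to act with the heat shock factor HSF1. IER2 had 9.17 FPKM in knockout and 6.95 FPKM in wild type, a log2 ratio of 0.40 and a difference of 2.22 FPKM. IER5 had 22.6 FPKM in knockout and 22.8 FPKM in wild type, a log2 ratio of -0.01. The relatives thus gave the highest ratio of the 8 and one of the values nearest to 0. A further relative, IER5L, had 1.78 FPKM in knockout and 1.33 FPKM in wild type, a log2 ratio of 0.43 at a low level. IER2 is overlapped on the opposite strand by the antisense gene AC011446.2, which has no row in the table. The kit is directional per the labels, but no source used here says whether reads were counted by strand. The nearest compared gene before IER2, STX10, had a log2 ratio of 0.21, and the nearest after it, CCDC130, of 0.03. The median of the 20 compared genes nearest to IER2 was 0.06.

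The IER2 window, at chr19:13150161-13150460 on the + strand of GRCh38.p14, is printed because IER2 had the highest ratio. Capitals mark the GC box GGGCGG, the ETS site CCGGAA and the TGACG core, on either strand.
IER2: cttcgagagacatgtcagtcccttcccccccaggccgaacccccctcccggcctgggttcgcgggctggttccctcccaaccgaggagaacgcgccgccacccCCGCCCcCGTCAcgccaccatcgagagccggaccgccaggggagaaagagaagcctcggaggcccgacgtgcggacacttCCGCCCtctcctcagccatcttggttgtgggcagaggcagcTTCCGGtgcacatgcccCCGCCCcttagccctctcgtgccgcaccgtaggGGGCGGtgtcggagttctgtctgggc
It held 4 GC boxes, 1 ETS site and 1 TGACG core. These motifs are common, being present in 45.0%, 17.2% and 24.6% of all windows in that order. The EGR site GTGGGCG, present in 9.52% of windows and able to overlap a GC box, was in none of the 7 windows.

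IER3 (ENSG00000235030), which encodes a short-lived protein linked to survival signalling, was listed at 0 in both groups. Its identifier in the table is not in the primary assembly of the annotation used here, and the name table pairs the symbol with another one. Of the 667 rows with such identifiers, 629 (94.3%) were at 0 in both groups, against 1721 of 19225 rows (8.95%) whose identifier is in the assembly. The listed 0 is thus not read as a level of IER3 mRNA, and no ratio is given. The 9 measured genes all have identifiers in the assembly.

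DUSP1 (ENSG00000120129) and DUSP6 (ENSG00000139318) encode phosphatases that switch off MAP kinases. DUSP1 is nuclear and acts on p38, JNK and ERK, while DUSP6 is cytoplasmic and acts mainly on ERK. DUSP1 had 16.2 FPKM in knockout and 15.2 FPKM in wild type, a log2 ratio of 0.09. DUSP6 had 8.16 FPKM in knockout and 9.13 FPKM in wild type, a log2 ratio of -0.16, the lowest of the 8. Among the 10 phosphatases of this class, 8 were compared, 4 above 0 and 4 below, and none passed 1.5-fold. DUSP16, the most abundant, had 33.0 FPKM in knockout and 29.9 FPKM in wild type, and DUSP7 had 10.1 and 10.0 FPKM. DUSP1 and DUSP6 are each overlapped on the opposite strand by an antisense gene without a row in the table, as IER2 is, and EGR3 by the non-coding AC055854.1, likewise without a row.

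The DUSP1 window, at chr5:172771146-172771445 on the - strand of GRCh38.p14, is printed because it held cAMP response elements, which the other windows did not. Capitals mark the element TGACGTC, its TGACG core and the TATA box TATAAA.
DUSP1: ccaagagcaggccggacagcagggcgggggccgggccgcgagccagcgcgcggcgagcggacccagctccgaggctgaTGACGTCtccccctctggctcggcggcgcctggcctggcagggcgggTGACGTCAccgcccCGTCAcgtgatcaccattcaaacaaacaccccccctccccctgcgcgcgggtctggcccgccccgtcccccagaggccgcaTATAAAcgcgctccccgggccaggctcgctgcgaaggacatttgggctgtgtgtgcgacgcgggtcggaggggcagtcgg
DUSP1 had 3 matches to TGACGTC on either strand, of which 2 overlap each other, while 3.45% of all windows held at least 1. None of the other 6 windows did. It had 4 TGACG cores, against 24.6% of windows with any, and a TATA box 30 bases before the start. TATAAA was in 11.5% of all windows.

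**Figure D2:**
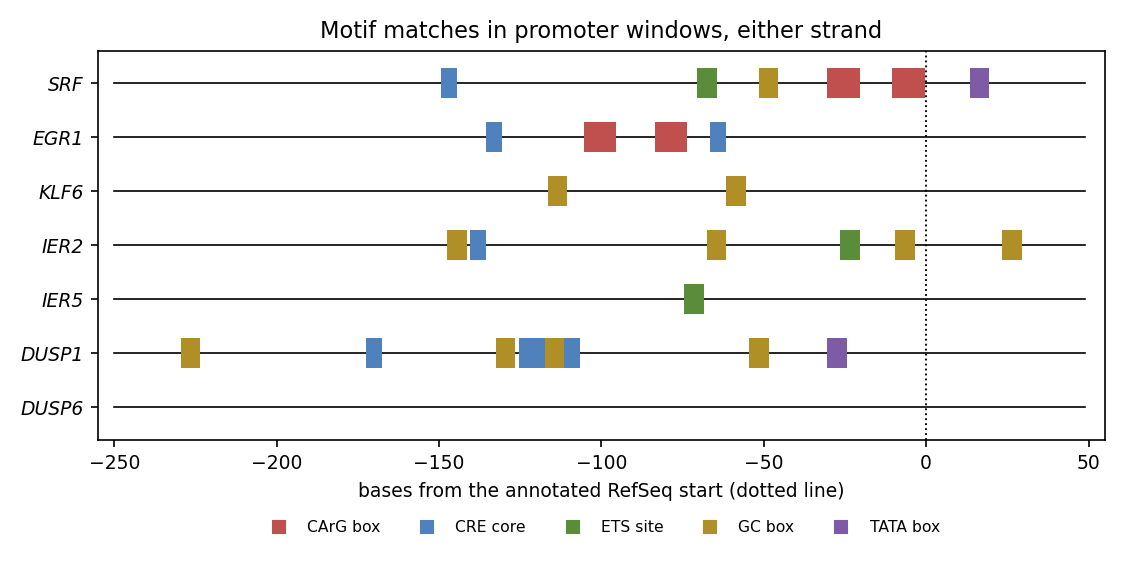
Positions of motif matches in the 7 promoter windows, in bases from the annotated RefSeq start, with 1 line per gene and a coloured box per match on either strand. CArG boxes appear in SRF and EGR1 alone, TGACG cores (CRE core) cluster in DUSP1, and DUSP6 has no match.

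Ordered by level, the knockout column ran IER5, SRF, KLF6, DUSP1, IER2, DUSP6, KLF10, EGR1 and EGR3. The wild-type column differed at 2 places, with KLF6 just above SRF and DUSP6 above IER2. SRF, KLF6 and DUSP1 stood close together, between 16.2 and 19.3 FPKM in knockout and between 15.2 and 16.5 FPKM in wild type. Whether these neighbours differ beyond the spread between libraries cannot be told. The 9 measured genes summed to 102.0 FPKM in knockout and 95.9 FPKM in wild type, and IER5, KLF6, DUSP1 and SRF made up 73.2% and 73.9% of those sums. The median of the 8 compared genes was 12.2 FPKM, averaged over the columns, and that of all compared genes 16.5 FPKM.

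Ratios spread more among weakly expressed genes, so each gene was set beside the compared genes whose mean FPKM lay within 0.5 log2 units of its own. All 8 lay inside the central 95% of their neighbours in level. IER2 was nearest to an edge, with a log2 ratio of 0.40 where the central 95% of 1937 genes of like level ran from -0.57 to 0.44. For SRF, 2680 such genes ran from -0.42 to 0.36 around its 0.24. For DUSP6, 2042 genes ran from -0.56 to 0.42 around its -0.16. EGR1, at a lower level, stood among 1300 genes that ran from -0.74 to 0.62. Each of these ranges is that of the central 95%, and some genes of like level lie outside it. They describe the spread between genes in the 2 columns and not the error of a gene.

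**Figure D3:**
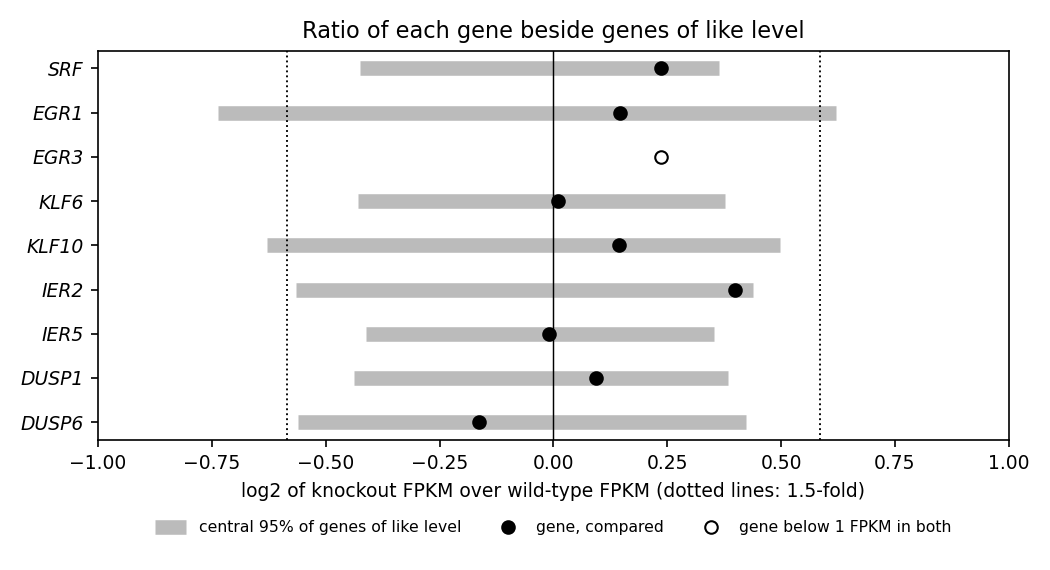
Log2 of knockout over wild-type FPKM for the 9 genes above 0 (points), with grey bars for the central 95% of compared genes of like level and dotted lines at 1.5-fold. Every filled point lies inside its grey bar and between the dotted lines, IER2 (0.40) being the nearest to both. EGR3, below 1 FPKM, is drawn open without a bar.

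**Figure D4:**
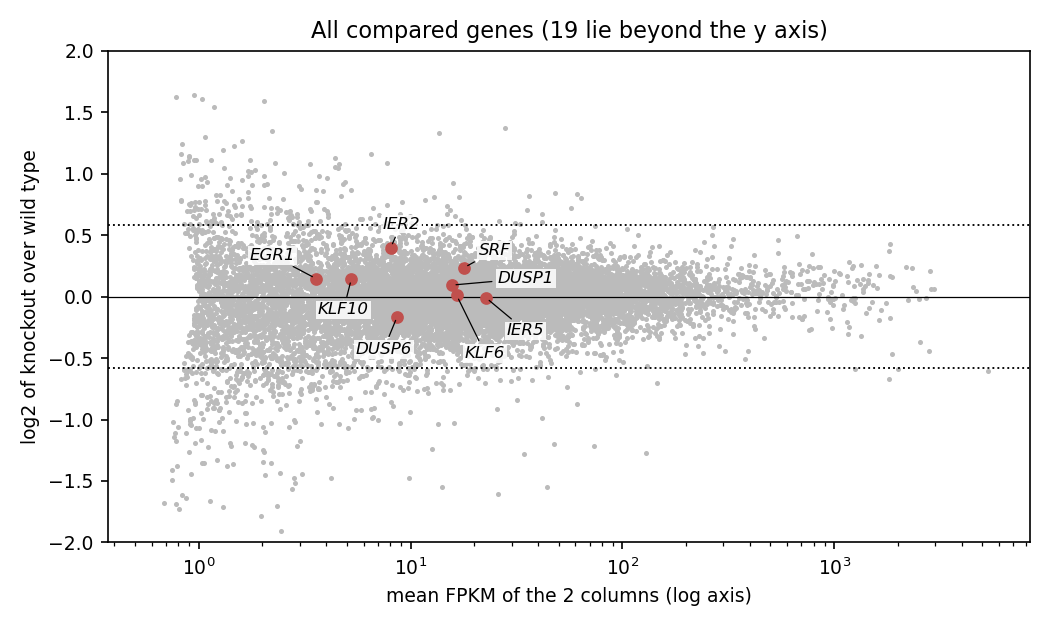
Log2 of knockout over wild type against the mean FPKM of the columns on a log axis, for all 13219 compared genes (grey, 19 beyond the axis limit of 2) and the 8 genes described (red). The red points lie between the dotted lines at 1.5-fold, with IER2 towards the upper side of the cloud at its level.

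The median log2 ratio of the 20 nearest compared genes was taken as a measure of any regional shift. It was 0.06 around IER2, -0.08 around SRF, 0.04 around EGR1, -0.10 around KLF6 and -0.07 around DUSP6. None of the 9 ratios changed sign when this median was taken off.

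The genes shared a compact structure that their choice by name did not use. In the longest annotated coding transcript, IER2 and IER5 had 1 exon, EGR1 and EGR3 had 2, DUSP6 had 3, KLF6, KLF10 and DUSP1 had 4, and SRF had 7. The median was 3 exons over these 9 and 9 over all compared genes, of which 19.9% had at most 4. The genes spanned 3106 to 10209 bases, with a median of 5644, against 34324 for all compared genes. Short genes of this kind are a known trait of rapidly induced genes. The median 3' UTR was 2022 bases against 980, and the AU-rich pentamer ATTTA, a known element of unstable mRNAs, occurred up to 10 times, in IER5. Per kb of 3' UTR it occurred 5.95 times in DUSP1 and 3.32 times in IER5, while IER2 had none. The median of 1.29 per kb over the 9 genes compares with 1.56 over all compared genes.

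The coding sequences were also searched for TGGAG, a G-rich motif linked with CNBP binding. IER5 had 8 matches, or 8.15 per kb, the highest density of the 9. KLF10 had none, as did 6.80% of all compared genes. EGR1 had 6 matches (3.68 per kb), DUSP1 4 (3.63 per kb), DUSP6 4 (3.50 per kb), SRF 3 (1.97 per kb) and EGR3 2 (1.72 per kb), while IER2 (1.49 per kb) and KLF6 (1.18 per kb) had 1 each. The median was 1.97 per kb over the 9 genes and 2.84 over all compared genes. IER5, with the most matches, had a log2 ratio of -0.01, and KLF10, with none, of 0.14. A relation between matches and ratio was not tested, and no error is known for either ratio. The ratios are of mRNA levels, and binding and translation were not analysed here.

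Upstream of these genes stand the receptors, ligands and kinases of the pathway. Of 16 growth factor receptors, all compared, 5 were above 0 and 11 below, with a median log2 ratio of -0.05 and none past 1.5-fold. The most abundant were FGFR1 (69.8 FPKM in knockout, 72.7 in wild type) and IGF1R (63.8 and 65.4 FPKM). Of 15 ligands, 11 were compared with a median of 0.05. At 1.2-fold 3 were higher and 0 lower, where 8.62% of all compared genes were higher and 13.2% lower. These 3 were VGF, FGF1 (2.60 FPKM in knockout, 1.75 in wild type) and IGF2 (1.17 and 0.811 FPKM), of which FGF1 and IGF2 were named after their values were seen. VGF and IGF2 met the minimum FPKM only through the knockout column. The ligands left out, AREG, BTC, FGF18 and PDGFB, were each lower in knockout, so the minimum itself shaped this count. VGF, a secreted neurotrophic peptide precursor, was past 1.5-fold, at 1.39 FPKM in knockout and 0.903 FPKM in wild type, a log2 ratio of 0.62. With a pseudocount of 1 it was 0.33. The most abundant ligands were FGF9 (8.73 FPKM in knockout, 9.52 in wild type) and FGF2 (5.13 and 5.12 FPKM). The 23 genes from the adaptor GRB2 to ERK and its RSK and MSK kinases had a median of 0.03, with 14 above 0 and none past 1.5-fold. HRAS had 97.4 FPKM in knockout and 100.9 FPKM in wild type. RPS6KA5, which encodes the kinase MSK1, lay just below the threshold at 1.498-fold, with 16.0 FPKM in knockout and 10.7 FPKM in wild type, and was named after its value was seen.

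The cytoskeletal targets downstream of SRF lay mostly below 0, while its cofactors were too few to be set apart from all compared genes. Of all compared genes, 48.7% were above 0, with a median log2 ratio of -0.01. Of 8 genes listed with SRF cofactors, 7 were compared, 2 above 0 and 5 below, with a median of -0.05. The most abundant gene of that list was HOXA5, with 42.9 FPKM in knockout and 34.0 FPKM in wild type. HOXA5 is a homeobox gene, was 1 of the 2 above 0, and its action with SRF was not examined. MKL2, a myocardin-related cofactor, had 17.9 FPKM in knockout and 20.9 FPKM in wild type, a log2 ratio of -0.23. With the median of the 20 nearest genes taken off, the log2 ratio of MKL2 was -0.08. Of 19 cytoskeletal and matricellular targets, 3 were above 0 and 16 below, with a median log2 ratio of -0.11 and none past 1.5-fold. The actins ACTB (1600 FPKM in knockout, 1723 in wild type) and ACTG1 (1408 and 1502 FPKM) had log2 ratios of -0.11 and -0.09. The 19 genes induced by ERK as feedback or output also lay mostly below 0, with 6 above and 13 below and a median of -0.09. ETV4, an ETS factor, was past 1.5-fold lower, with 6.50 FPKM in knockout and 9.79 FPKM in wild type, a log2 ratio of -0.59. It was -0.52 with a pseudocount of 1, -0.58 after centring on the median and -0.58 with the 20 nearest genes taken off, each inside 1.5-fold, and DHX8 overlaps it on the opposite strand. CCND1, cyclin D1, had 102.5 FPKM in knockout and 117.3 FPKM in wild type, and HMGA2 29.2 and 40.7 FPKM.

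The other early response genes stood mostly above 0. Of 34 listed, 29 were compared, 19 above 0 and 10 below, with a median log2 ratio of 0.15. At 1.2-fold, 8 were higher and 1 lower, where 8.62% of all compared genes were higher and 13.2% lower. By the same measure 0 of the 19 ERK-induced genes were higher and 6 lower, and of the 19 cytoskeletal targets 1 was higher and 3 lower. ARC, known as a synaptic early gene, was the only one past 1.5-fold, with 4.55 FPKM in knockout and 2.67 FPKM in wild type, a log2 ratio of 0.77. The most abundant were SRSF3 (261.6 FPKM in knockout, 272.8 in wild type) and CCNL1 (88.5 and 72.2 FPKM). In the AP-1 family, 6 of 7 genes were above 0 with a median of 0.24, from JUN (61.6 FPKM in knockout, 59.2 in wild type) and JUND (42.1 and 35.7 FPKM) to FOSB (3.13 and 1.47 FPKM, log2 ratio 1.09), which ERCC1 overlaps on the opposite strand. No test of a difference between these lists and the 8 genes was made. The lists were chosen with the medians of wider immediate early lists in these data known. The contrast between lists is therefore not independent of those earlier results. Factors that bind AU-rich elements or degrade such mRNAs had a median of 0.08 over 19 compared genes of 21, 12 above 0 and none past 1.5-fold. The lists share genes and are not separate sets. ZFP36, ZFP36L1 and ZFP36L2 are also among the other early response genes, and DUSP4 and DUSP5 are both ERK-induced genes and phosphatases. KHSRP had 370.7 FPKM in knockout and 340.9 FPKM in wild type, and HNRNPD 262.0 and 314.1 FPKM.

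**Figure D5:**
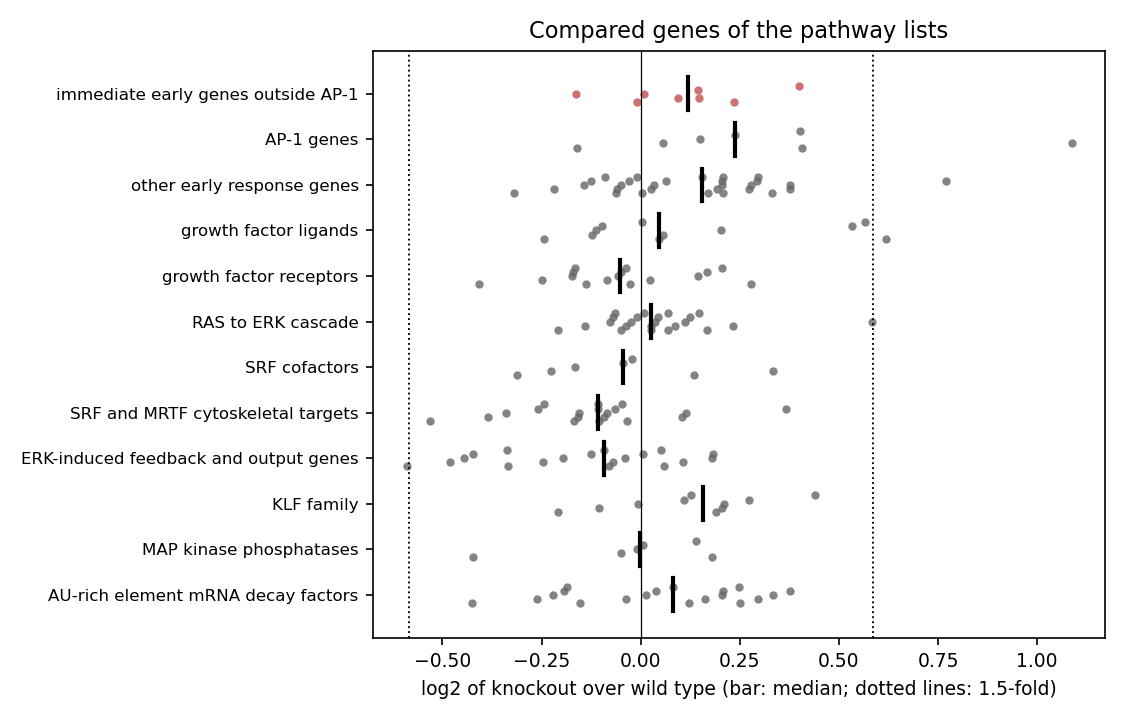
Log2 of knockout over wild type for the compared genes of 11 pathway lists (grey points) and the 8 genes described (red, top row), with a black bar at each median and dotted lines at 1.5-fold. The genes described have a median of 0.12, between the 0.24 of the AP-1 genes and the -0.11 of the cytoskeletal targets. The 8 genes are left out of the other rows.

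CNBP mRNA had 214.1 FPKM in knockout and 201.8 FPKM in wild type, which does not check the column labels, since Cas9 can disrupt a gene without lowering its mRNA. Of 11 markers for HEK293 or embryonic kidney, 8 were compared, with VIM at 519.9 FPKM in knockout and 510.4 FPKM in wild type and KRT8 at 98.4 and 123.3 FPKM, while LHX1 and NEFL were among those listed at 0 in both groups. Summed markers of blood (0.650 FPKM in knockout, 0.914 in wild type, 5 genes), endothelium (0.440 and 0.481 FPKM, 4 genes) and hepatocytes (0.442 and 0.174 FPKM, 3 genes) were below 1 FPKM in each group. CD3E and PECAM1 were listed at 0, as was DCP1A, a decapping factor that cells in general use, so that a listed 0 is not read as absence of the marker. The 5 fibroblast markers summed to 70.9 FPKM in knockout and 80.2 FPKM in wild type, all 5 below a log2 ratio of 0, led by COL1A1 (38.2 and 41.3 FPKM) and DCN (12.0 and 15.8 FPKM). Their part in the ratios was not tested.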

How the data were processed

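Total RNA from 3 CNBP knockout and 3 wild-type HEK293 samples was sequenced from strand-specific libraries, per the labels' protocols. TopHat, Cufflinks, Cuffdiff and build hg19 are named without versions in the submitters' processing notes. The authors deposited 1 FPKM value per gene and group. The unit was inferred from those tools and from column sums of 612941 in knockout and 612366 in wild type. No source used here names the annotation, the strand setting or how libraries were combined.

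Log2 ratios of knockout over wild type were computed from the 2 values without a pseudocount. The deposited log2 ratio, which runs the other way, was not used. Of 19892 rows, 19130 had their identifier in the name table, and 26 symbols stored as dates were restored from it. The limma fit planned for values per library could not be run on 1 value per group. Counts at 1.5-fold took its place. The calculation was run on simulated columns with known folds, which checks its arithmetic and not the spread between libraries.

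Members, lists and tests were chosen with earlier results of these data known, among them the medians of wider immediate early lists. Named were CNBP, the members, and in each list up to 3 other genes past 1.5-fold and the 2 most abundant others. Some genes that this rule names are left out. The nearest compared gene on each side of a member was looked up. Gene structure, coding sequence and gene order came from GENCODE release 29, which is on another build, so no coordinates are taken from it. Promoter windows came from RefSeq, GRCh38.p14. Python 3.11.15, numpy 2.4.6, pandas 2.3.3 and matplotlib 3.10.9 were used.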

Additional observations from a re-analysis of the deposited data

How the results depend on the processing

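The 9 ratios were recomputed with centring on the median and with the 20 nearest genes taken off. In these 18 values the gene stayed inside 1.5-fold, and 0 changed sign. Centring took off a median log2 ratio of only -0.00638, while the ratio nearest to 0 was 0.00945 (KLF6). Centring could therefore change no sign, and it was too small to bring IER2, at 0.40, to 1.5-fold. The centred values thus say nothing of stability, and only those with the 20 nearest genes taken off could have changed. An FPKM minimum of 5 or none leaves a ratio as it is, and pseudocounts of 1 and 0.1 can only bring it nearer to 0, so those settings say nothing of stability. EGR1 and EGR3 gave no value at a minimum of 5. The count of members past 1.5-fold stayed 0 in each direction with the 20 nearest genes taken off and, as it had to, with centring. At 1.2-fold the count was 1 higher (IER2).

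The background counts, 196 higher and 368 lower, moved more. They were 53 and 126 with a minimum of 5, 945 and 1141 with no minimum, 74 and 141 with a pseudocount of 1, 45 and 90 at 2-fold, and 1139 and 1741 at 1.2-fold. With no minimum, 45.3% of the genes past 1.5-fold were higher, against 34.8% at the minimum of 1. The other settings kept both counts within 1.5 times of these.

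No paired analysis was possible because the table holds 1 value per group and none per library. For the same reason leaving out each replicate was not run. The depth of the libraries is unknown, and at the level of EGR3 no small difference can be read.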

Other observations

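Some genes related to those above were named after their values were seen. The 3 members of the ZFP36 family, which bind AU-rich elements and speed the decay of early mRNAs, were each higher in knockout, with ZFP36 at 5.57 FPKM in knockout and 4.29 FPKM in wild type, ZFP36L1 at 15.3 and 13.3 FPKM, and ZFP36L2 at 14.99 and 12.2 FPKM. ID3, an inhibitor of basic helix-loop-helix factors, had 54.6 FPKM in knockout and 42.0 FPKM in wild type, and KLF5, an epithelial Krüppel-like factor, 9.60 and 7.08 FPKM. The ERK phosphatase DUSP5 (8.07 FPKM in knockout, 10.8 in wild type) and the ERK pathway inhibitor SPRY4 (3.09 and 4.21 FPKM) were lower in knockout, as were the myosin light chain MYL9 (4.70 and 6.80 FPKM) and the focal adhesion protein ZYX (36.6 and 47.8 FPKM). None of these reached 1.5-fold, and no spread between libraries is known for any of them. These genes were picked by value from lists that also hold genes going the other way. Below a log2 ratio of 0 were 7 of 19 AU-rich decay factors, 10 of 29 other early response genes and 3 of 12 KLF genes. Above 0 were 6 of 19 ERK-induced genes and 3 of 19 cytoskeletal targets.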
